A study of Mus musculus with 35 samples.

Results

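The chemokine ligands and receptors are 52 genes of the 19908 measured genes of this study, chosen by symbol alone: every gene whose symbol is that of a Ccl, Cxcl, Xcl or Cx3cl ligand or of a Ccr, Cxcr, Xcr or Cx3cr receptor, on a probe set annotated with 1 symbol. They comprise 34 ligands and 18 receptors. Another 7 probe sets that list a family gene together with other symbols were left out. No filter on low values was applied, so that all 52 members entered every test.

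Colon RNA of 35 C57BL/6N mice was profiled on Mouse Gene 1.0 ST arrays of Affymetrix, in 7 groups of 5 mice with an array for each mouse. Of these groups 4 were conventional mice: untreated wild-type, untreated Reg3a-transgenic, wild-type given dextran sulfate sodium (DSS) and Reg3a-transgenic given DSS. DSS is a polysaccharide that injures the colon epithelium and causes colitis, and was given at 3% for 5 days, followed by water, with colon collected at day 12. The titles and the design text give these 4 groups, although another label describes all 4 as sampled after microbial transfer, which the text on treatment mentions for axenic mice alone. In the remaining 3 groups axenic mice, which are raised without microbes, all received DSS. They had been colonised with the flora of wild-type or of transgenic mice 3 weeks before DSS, or served as controls, which 1 label describes as given DSS ahead of the transfer. The sources used here do not say whether and when the controls were colonised, what promoter drives the transgene and from which species it comes, or the age, sex, cage or any batch of the mice; p-values measure the spread between these mice. Reg3a encodes a secreted C-type lectin that binds bacteria. The mouse Reg3a probe set read 5.05 to 5.25 on average in the 4 conventional groups, so it gave no check of the transgenic labels. It was 5.24 in axenic controls, 6.56 in recipients of transgenic flora and 8.65 in recipients of wild-type flora, where single mice ranged from 5.10 to 9.84. The mean of 5 pancreas markers had the same order in these 3 groups, at 6.74, 8.07 and 10.08. The source of the Reg3a signal was not tested.

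Chemokines are small secreted proteins that guide leukocytes along concentration gradients by engaging seven-transmembrane receptors coupled to G proteins. Homeostatic members position lymphocytes and maintain mucosal traffic, whereas inflammatory members are induced by cytokines and microbial products and recruit neutrophils, monocytes and effector lymphocytes to an injured colon. Interferon regulatory factors and NF-kB are well-known regulators of the inflammatory ligands. In RNA of whole tissue, fewer cells of a type and less RNA per cell cannot be told apart.

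The promoters of 3 ligands that respond to these factors are shown because their transcripts were among those that changed most under DSS. Each window spans 250 bases before and 50 after the transcription start in RefSeq, read on the strand of the gene in the GRCm38.p6 build. Capitals mark matches on either strand to an interferon response element core (GAAANNGAA) or to a kappa-B core (GGGANNTNC). The windows are Cxcl9 at chr5:92328030-92328329 on the minus strand, Cxcl10 at chr5:92348840-92349139 on the minus strand, and Cxcl2 at chr5:90903649-90903948 on the plus strand.
Cxcl9: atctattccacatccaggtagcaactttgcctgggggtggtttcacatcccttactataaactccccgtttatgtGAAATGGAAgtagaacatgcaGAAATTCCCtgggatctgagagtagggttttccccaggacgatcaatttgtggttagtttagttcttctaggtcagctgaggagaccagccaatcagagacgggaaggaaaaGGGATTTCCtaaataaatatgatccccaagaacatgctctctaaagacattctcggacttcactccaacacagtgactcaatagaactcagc
Cxcl10: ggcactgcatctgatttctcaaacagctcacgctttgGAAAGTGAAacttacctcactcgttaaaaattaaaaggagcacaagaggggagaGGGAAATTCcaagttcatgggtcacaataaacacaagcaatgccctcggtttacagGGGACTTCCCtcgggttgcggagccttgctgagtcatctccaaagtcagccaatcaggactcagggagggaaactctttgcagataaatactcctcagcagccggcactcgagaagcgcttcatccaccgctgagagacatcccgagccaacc
Cxcl2: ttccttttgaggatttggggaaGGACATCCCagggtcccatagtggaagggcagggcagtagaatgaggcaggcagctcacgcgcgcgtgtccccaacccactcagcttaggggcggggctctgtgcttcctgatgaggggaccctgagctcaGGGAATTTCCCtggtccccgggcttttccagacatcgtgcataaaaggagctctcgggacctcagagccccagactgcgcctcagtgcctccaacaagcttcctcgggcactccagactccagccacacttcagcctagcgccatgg
In Cxcl9 the interferon core began 175 bases before the start and the kappa-B matches 154 and 42 bases before it. In Cxcl10 the interferon core began 213 bases and the kappa-B matches 159, 103 and 102 bases before the start, the last pair being overlapping matches. In Cxcl2 only the kappa-B core was matched, at 228, 97 and 95 bases before the start, again with an overlapping pair. Over all 32851 promoter windows of 300 bases, 8.56% held the interferon core, 15.1% the kappa-B core and 8.30% a gamma-activated site (TTCNNNGAA). RefSeq windows were matched for 38 of the 52 members, 40 windows in all, of which 8 held the interferon core, 12 the kappa-B core and 4 the gamma-activated site. A match is a run of letters in this window and was not measured as a bound site. Cxcl9 and Cxcl10 are close neighbours on chromosome 5, with Art3 between them and Cxcl11 beyond Cxcl10. Of the ligands 11 lie on chromosome 5 and 12 on chromosome 11, and 11 of the receptors lie on chromosome 9.

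All values are log2 RMA signal, and a change is a difference of group means on that scale, so that 1 corresponds to a 2-fold difference. Each change is given with the moderated standard error (SE) of limma and its p adjusted for all 19908 genes after Benjamini and Hochberg, and a gene was called at an adjusted p under 0.05. Signal of different probe sets was not compared. Markers of both the epithelium and the muscle wall were present: the mean of 6 epithelial markers lay between 10.82 and 11.62 over the group means and that of 6 smooth muscle markers between 10.63 and 11.63. The SD of all values within an array, a measure of its dynamic range, averaged 1.73 in axenic controls and 1.96 in recipients of wild-type flora, with the other 5 groups at 1.83 to 1.90. Markers of pancreas moved as well, with a group mean of 10.08 in recipients of wild-type flora and 5.99 in transgenic mice given DSS.

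**Figure D1:**
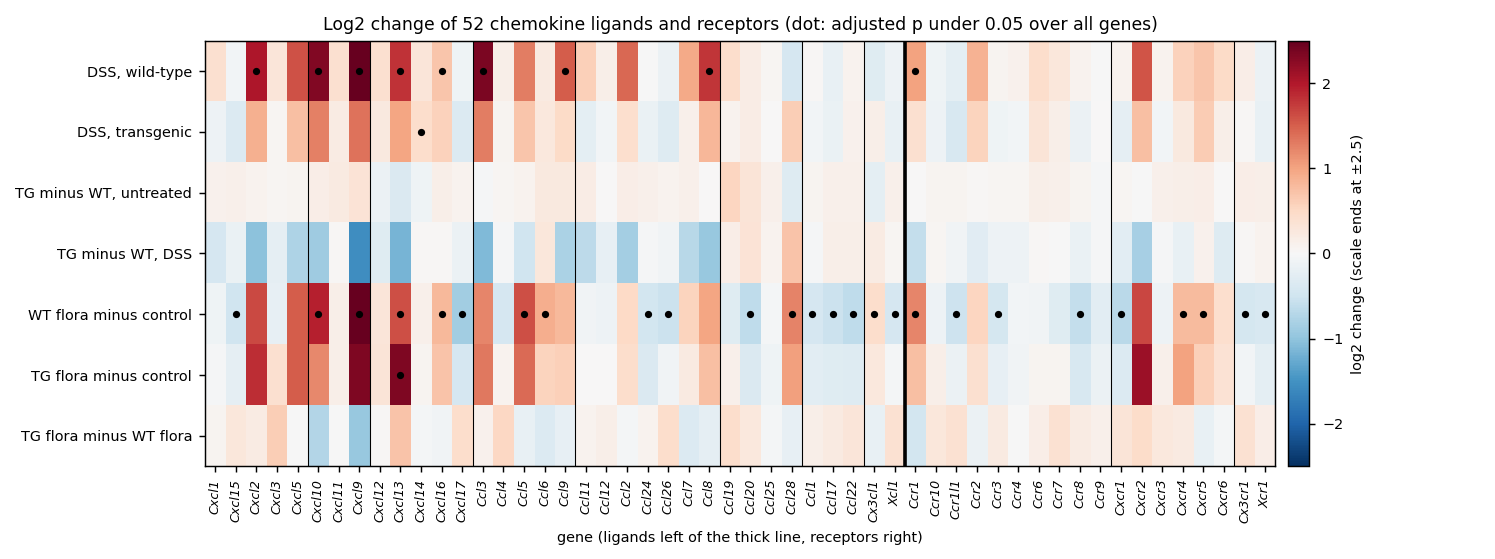
Log2 change of each of the 52 members (columns, ligands left of the thick line, receptors right, thin lines between functional groups) in 7 comparisons of 2 groups (rows), with red for higher and blue for lower, a colour scale that ends at ±2.5 and a dot at each adjusted p under 0.05. DSS in wild-type mice has 9 dots, all red, DSS in transgenic mice 1, the comparisons of genotype and of donor none, and the comparison of wild-type flora with axenic controls 26.

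In wild-type mice DSS was followed by a rise of inflammatory chemokines. Of the 52 members 9 rose and 0 fell (17.3%), against 5.13% of all genes called and 3.0% called higher. The 9 were Cxcl9 and Cxcl10, Cxcl2, Ccl3, Ccl8 and Ccl9, Cxcl13, Cxcl16 and 1 receptor, Ccr1. The median change over the 52 members was 0.30, against -0.02 over all genes, 12 members were at least 2-fold higher and 0 at least 2-fold lower, and 22 members had an unadjusted p under 0.05. In 10 members all DSS mice lay above all untreated mice (Cxcl2, Cxcl5, Cxcl9, Cxcl10, Ccl2, Ccl3, Ccl5, Ccl8, Ccl9 and Cxcr6), a pattern found in either direction in 6.16% of all genes.

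Among the ligands of Cxcr3, the receptor of activated T cells and natural killer cells, 2 of 3 rose. Cxcl9, an interferon-gamma-induced attractant of T cells, read 6.42, 6.57, 6.70, 6.83 and 7.13 in untreated wild-type mice and 7.26, 9.85, 10.05, 11.26 and 11.48 in wild-type mice given DSS. Every DSS mouse lay above every untreated mouse, although mouse 56, at 7.26, did so by a small margin. The change was 3.25 (SE 0.65, limma adjusted p = 0.0177), a fold of 9.51. Cxcl10, which shares the receptor, read 6.22, 6.26, 6.43, 6.49 and 6.69 without DSS and 7.02, 8.22, 8.96, 9.06 and 10.37 with it. Its groups did not overlap, and it rose by 2.30 (SE 0.48, limma adjusted p = 0.0205). Cxcl11, the third ligand of Cxcr3, went from 5.99 ± 0.13 to 6.40 ± 0.20 (SD, n = 5), a difference of 0.40 that missed the threshold (limma adjusted p = 0.0765).

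Ligands of Cxcr2, the receptor through which neutrophils are drawn from blood, gave 1 call in 5. Cxcl2 read 4.85, 5.17, 5.19, 5.25 and 5.46 in untreated mice and 5.57, 6.69, 7.06, 7.53 and 9.15 under DSS, without overlap. It rose by 2.01 (SE 0.51, limma adjusted p = 0.0447). Cxcl5, a ligand made by epithelium and other cells, read 4.66 to 5.13 untreated and 5.29 to 8.41 under DSS. These groups did not overlap either, but the difference of 1.59 (SE 0.49) did not pass (limma adjusted p = 0.102), with mouse 55 far above the other 4. Cxcl1, Cxcl3 and Cxcl15 differed by 0.41, 0.31 and -0.06, none of them called.

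Of the 5 inflammatory CC ligands that act mainly on monocytes, macrophages and effector T cells, 2 rose. Ccl3, also known as macrophage inflammatory protein 1-alpha, read 6.03, 6.09, 6.33, 6.51 and 6.70 in untreated mice and 6.84, 8.32, 9.01, 9.07 and 10.22 under DSS. All DSS mice were the higher ones, and the change was 2.36 (SE 0.49, limma adjusted p = 0.0201). Ccl9, a myeloid attractant that binds Ccr1, read 7.55, 7.65, 7.70, 7.77 and 7.85 untreated and 8.72, 8.93, 9.10, 9.54 and 9.80 under DSS. It was the member with the smallest p, at a change of 1.51 (SE 0.19, limma adjusted p = 0.00177), and the spread within each group was small beside the gap between them. Ccl5, which draws T cells and eosinophils, went from 7.71 ± 0.18 to 8.98 ± 0.88 (SD, n = 5) without overlap, and missed the threshold at 1.28 (SE 0.35, limma adjusted p = 0.0615). Ccl6 and Ccl4 differed by 0.22 and 0.15.

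Ligands of the monocyte receptor Ccr2 and the eosinophil receptor Ccr3 gave 1 call in 7. Ccl8, a monocyte attractant, read 5.17, 5.17, 5.19, 5.28 and 5.46 in untreated mice and 5.56, 6.48, 6.68, 8.14 and 8.35 under DSS. It rose by 1.79 (SE 0.45, limma adjusted p = 0.0465), and again mouse 56 was the lowest of the DSS mice. Ccl2, the best-known Ccr2 ligand, read 6.36 to 6.94 and 7.19 to 10.03, groups that did not overlap, with a difference of 1.43 that did not pass (SE 0.45, limma adjusted p = 0.109). Ccl7 and Ccl11 differed by 0.95 and 0.60, and Ccl12, Ccl24 and Ccl26 by 0.14, -0.01 and -0.14; none was called.

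Cxcl13, which attracts B cells through Cxcr5 and organises lymphoid follicles, was higher in most DSS mice. It read 8.31, 8.76, 9.11, 9.48 and 10.68 in untreated mice and 10.55, 10.64, 11.16, 11.25 and 11.72 under DSS. Untreated mouse 10, at 10.68, fell among the DSS mice, and the change was 1.80 (SE 0.39, limma adjusted p = 0.0257). Cxcl16, a membrane-anchored ligand of Cxcr6, went from 7.32 ± 0.16 to 8.02 ± 0.38 (SD, n = 5), a rise of 0.70 (SE 0.17, limma adjusted p = 0.0425). Cxcl12, the constitutive ligand of Cxcr4, Cxcl14 and Cxcl17 differed by 0.40, 0.31 and -0.11 and were not called.

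The 4 other ligands of lymphoid and mucosal homing gave 0 calls. They were Ccl19, which guides T cells and dendritic cells through Ccr7 (0.45), Ccl20, the ligand of Ccr6 (0.18), Ccl25, the small-intestinal ligand of Ccr9 (0.06), and Ccl28, the mucosal ligand of Ccr10 (-0.42). The lowest adjusted p among them was 0.512 in limma. Ccl1, Ccl17 and Ccl22, ligands of Ccr8 and Ccr4, differed by 0.03, -0.18 and 0.08, and Xcl1 and Cx3cl1 by -0.12 and -0.31.

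Of 18 receptors 1 rose (5.56%), a share near the 5.13% of all genes called. Ccr1, carried by neutrophils, monocytes and macrophages and bound by Ccl3 and Ccl9, read 4.72, 4.78, 4.83, 4.96 and 4.99 without DSS and 4.97, 5.41, 6.18, 6.30 and 6.48 with it. Mouse 56 lay within the untreated range and the other 4 above it, and the change was 1.01 (SE 0.26, limma adjusted p = 0.0483). Cxcr2 read 4.61 to 4.70 untreated and 4.66 to 8.37 under DSS, with a difference of 1.56 that did not pass (SE 0.55, limma adjusted p = 0.153). Ccr2 (0.88), Cxcr5 (0.70), Cxcr4 (0.58), Cxcr6 (0.47) and Ccr6 (0.44) had unadjusted p values under 0.05 and adjusted ones of 0.0613 to 0.213 in limma. The remaining 11 receptors (Ccr3, Ccr4, Ccr7, Ccr8, Ccr9, Ccr10, Ccr1l1, Cxcr1, Cxcr3, Cx3cr1 and Xcr1) lay between -0.24 and 0.29.

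**Figure D2:**
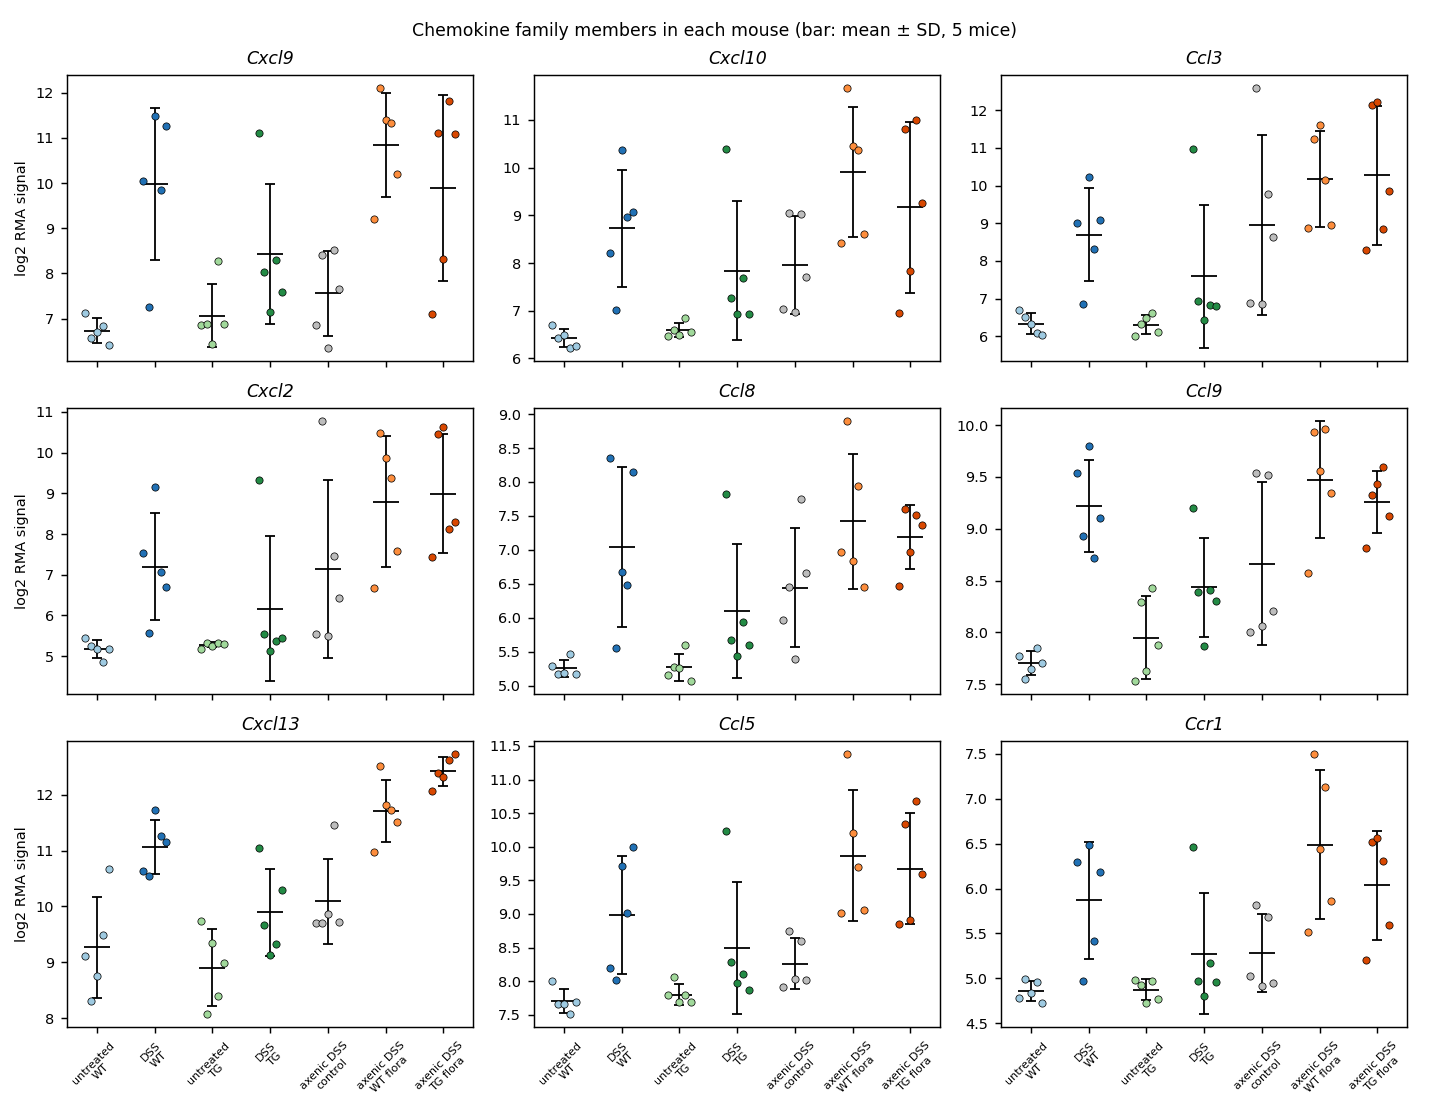
Log2 signal of 9 members in each mouse (points), by group, with the mean ± SD of 5 mice as bars. The lowest wild-type DSS mouse is near the untreated mice in Cxcl9 (7.26 against a highest untreated value of 7.13), the highest transgenic DSS mouse stands apart at 11.10 in Cxcl9 and 10.96 in Ccl3, and Cxcl13 is highest in recipients of transgenic flora (12.07 to 12.73).

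The number of wild-type calls varied when 1 mouse was left out, a step that also leaves fewer arrays in the fit. Without untreated mouse 7, for example, the change of Ccl3 stayed at 2.36 while its limma adjusted p rose to 0.0582. Without mouse 56, the lowest DSS mouse in 8 of these 9 members, 16 members and 6.18% of all genes were called, among the members Cxcl9 at 3.93 (limma adjusted p = 0.000191), Ccl5, Cxcl5, Ccr2, Cxcr2 and Cxcr4. Mouse 56 was singled out for its low values, so larger rises and added calls without it are no test. Without untreated mouse 7 or 8 the count was 1, without DSS mouse 52 or untreated mouse 11 it was 2, without untreated mouse 10 it was 3, without DSS mouse 53 or untreated mouse 9 it was 4, without DSS mouse 65 it was 5, and without DSS mouse 55 it was 9. Over all genes these 9 fits called between 2.13% (without untreated mouse 7) and 6.41% (without DSS mouse 55). Ccl9 was called in 10 of these 10 fits, Cxcl9 in 8, Cxcl10 in 5, Ccl3 and Cxcl13 in 4, Ccl8, Cxcl16 and Cxcl2 in 2 and Ccr1 in 1. The highest adjusted p that limma gave in those fits was 0.119, for Ccr1, and the change of Cxcl9 ranged from 2.87 to 3.93. Posterior Hox genes, which mark position along the gut, moved in this comparison, with 5 of 6 lower under DSS (Hoxb13 fell by 3.07 on the log2 scale). The mean posterior Hox level did not overlap between the groups, with the highest DSS mouse at 6.997 and the lowest untreated mouse at 7.188. A fit with this level as a covariate therefore cannot separate DSS from Hox level, and no conclusion is drawn from it. In that fit 0 members were called (8 of all genes), with a lowest limma adjusted p of 0.140. The changes of the 9 members kept their direction, their median went from 1.80 to 1.88 and the median SE from 0.45 to 0.97.

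Genes known to induce or transmit chemokine signals were read beside the family. Of 16 measured inducers in the interferon and NF-kB pathways 6 rose, among them Il1b, which encodes interleukin-1 beta (3.87, SE 0.45, limma adjusted p = 0.00119), Tnf (1.03), the interferon regulatory factor Irf1 and the NF-kB inhibitor Nfkbia (0.81). Of 15 receptor signalling genes 3 rose: Dock2 (1.06) and Rac2 (1.52), which drive leukocyte migration, and the beta-arrestin gene Arrb2 (0.61). Among 10 platelet chemokines, atypical receptors and related genes 0 were called. Of the 8 called members with a promoter window, the interferon core was held by Cxcl9, Cxcl10 and Ccl3, the kappa-B core by Cxcl9, Cxcl10 and Cxcl2, and the gamma-activated site by 0; the other 4 held no match.

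Leukocyte markers moved with these members. Of 6 neutrophil markers 3 rose, S100a8 (3.23), S100a9 (2.76) and Csf3r (1.11), and the mean of the 6 went from 6.55 to 8.23. Of 6 macrophage markers 2 rose, C1qa (1.09) and Adgre1 (0.83), as did 1 of 5 T cell markers, Cd3g (0.86), and 1 of 5 B cell markers, Cr2. Mouse 55 had the highest neutrophil and macrophage means among wild-type DSS mice and was highest in 7 of the 9 called members. Mouse 56 had the lowest neutrophil and macrophage means and was lowest in 8. The part of cell number in the chemokine changes was not tested.

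**Figure D3:**
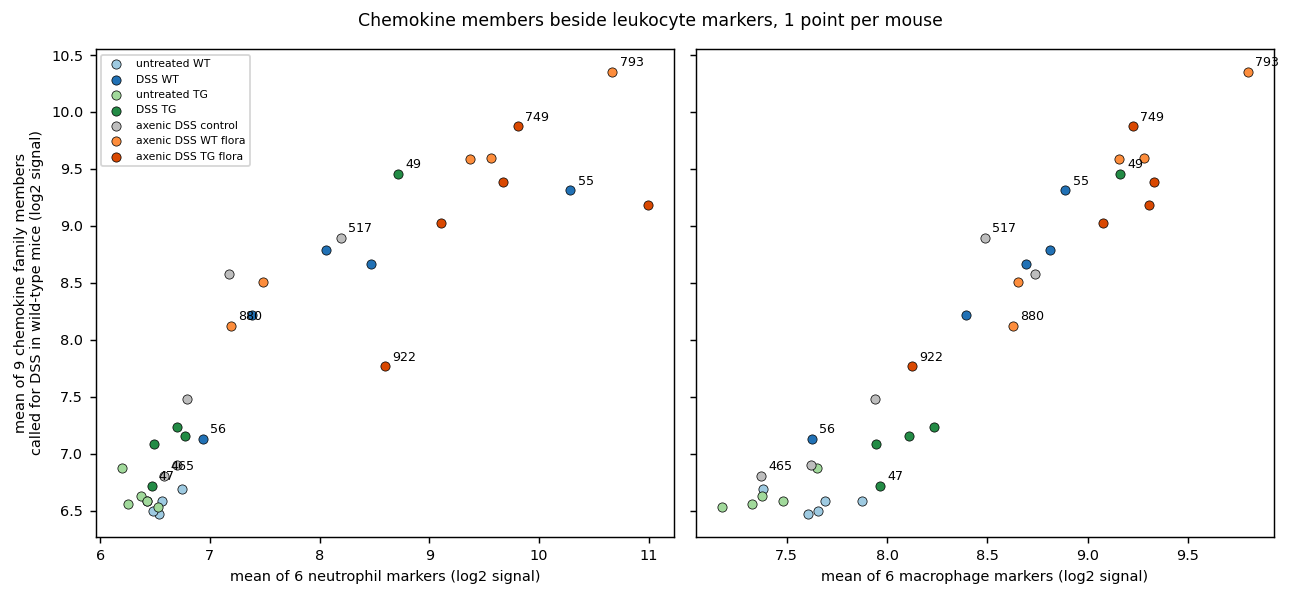
Mean log2 signal of the 9 members called for DSS in wild-type mice (vertical axis) against the mean of 6 neutrophil markers (left) or 6 macrophage markers (right), 1 point per mouse, coloured by group, with the highest and lowest chemokine mean of each group given DSS numbered. In 4 of these 5 groups the mouse with the highest chemokine mean also has the highest neutrophil mean, but among recipients of transgenic flora the mouse at 9.87 in chemokines is at 9.81 in neutrophil markers and the mouse at 10.99 in neutrophil markers is at 9.19 in chemokines. In all 5 groups the mouse with the lowest chemokine mean has the lowest neutrophil mean. Macrophage markers share the highest mouse in both conventional groups and recipients of wild-type flora, but not in recipients of transgenic flora or axenic controls. They share the lowest mouse in every group given DSS except transgenic mice. All points share the array scale.

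In transgenic mice DSS gave 1 call among the 52 members, against 4.55% of all genes called. The called member was Cxcl14, a constitutive epithelial chemokine, which read 7.30, 7.30, 7.31, 7.33 and 7.36 in untreated transgenic mice and 7.52, 7.71, 7.78, 7.88 and 7.91 under DSS. It rose by 0.44 (SE 0.08, limma adjusted p = 0.0189) without overlap. The call was lost without DSS mouse 48 (limma adjusted p = 0.0548) or untreated mouse 26 (0.0545). The median change over the members was 0.14, and 12 had an unadjusted p under 0.05. In 6 members the groups did not overlap, against 8.7% of all genes: Cxcl10, Cxcl14, Cxcl5, Ccr2 and Cxcr5 above and Cxcl15 below. The next smallest p values belonged to Cxcl15 (-0.34, limma adjusted p = 0.0669) and Ccl28 (0.61, limma adjusted p = 0.0767).

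The members called in wild-type mice had smaller differences here and none passed. Cxcl9 read 6.44, 6.85, 6.87, 6.88 and 8.28 in untreated transgenic mice and 7.15, 7.58, 8.03, 8.29 and 11.10 under DSS, a difference of 1.37 (SE 0.64, limma adjusted p = 0.200). Both groups held 1 mouse well above its fellows, untreated mouse 28 and DSS mouse 49. Cxcl10 read 6.46, 6.50, 6.56, 6.59 and 6.84 and then 6.92, 6.94, 7.26, 7.68 and 10.39, a difference of 1.25 (SE 0.55, limma adjusted p = 0.176) without overlap. Ccl3 read 6.00 to 6.61 untreated and 6.43, 6.79, 6.82, 6.94 and 10.96 under DSS, a difference of 1.28 (SE 0.71, limma adjusted p = 0.265). DSS mouse 49 was the highest of its group in 9 of the 9 members called in wild-type mice, and it also had the highest neutrophil and macrophage marker means of its group, at 8.72 and 9.16.

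In transgenic mice the differences of the 9 members called in wild-type mice were smaller without mouse 49. Without it the change was 0.70 in Cxcl9, 0.61 in Cxcl10, 0.44 in Ccl3, 0.09 in Cxcl2, 0.39 in Ccl8, 0.29 in Ccl9, 0.70 in Cxcl13, 0.40 in Cxcl16 and 0.11 in Ccr1, none of them called. The median over these 9 members was 1.80 in wild-type mice, 0.89 in transgenic mice and 0.40 in transgenic mice without mouse 49. These 9 members were chosen by their wild-type change, so a smaller median elsewhere is no test. Mice 49 and 47 were singled out for their high and low values, so changes without them are no test either. Without mouse 49, 2 members and 3.38% of all genes were called, the members being Cxcl14 (0.44) and the monocyte receptor Ccr2 (0.36, limma adjusted p = 0.0257), and without DSS mouse 47, the lowest in 8 of these 9 members, 4 members and 8.38% of all genes were.

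**Figure D4:**
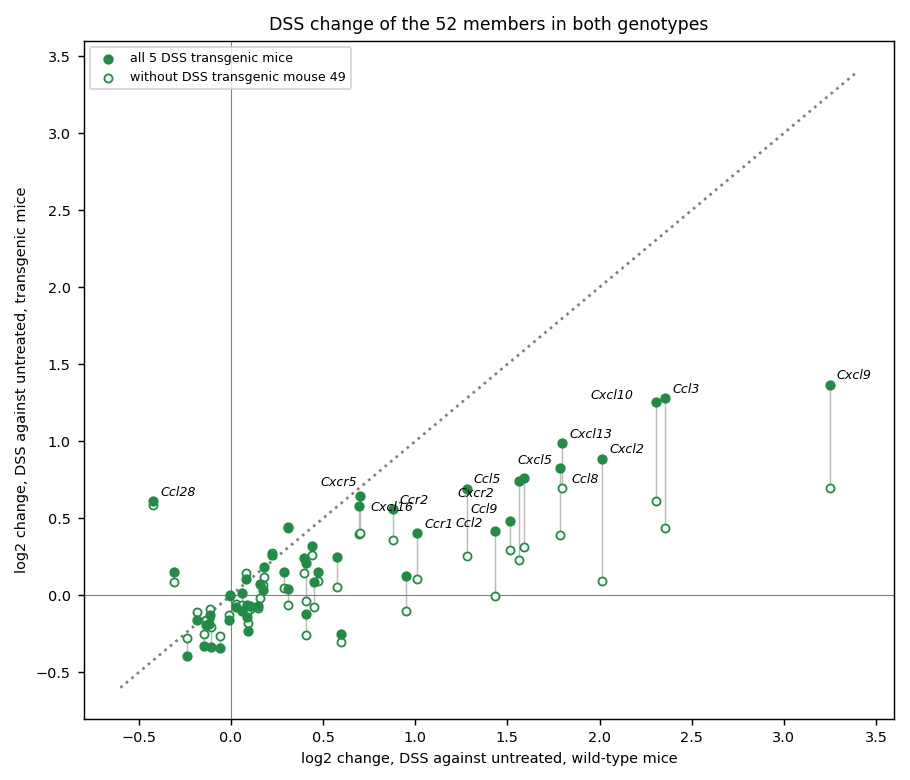
Log2 change under DSS of the 52 members in wild-type mice (horizontal) and transgenic mice (vertical), with all 5 transgenic DSS mice (filled) or without mouse 49 (open), joined by a grey line; the dotted line marks equal change. Cxcl9 lies at 3.25 and 1.37, and at 0.70 in transgenic mice without mouse 49, while Ccl28 lies at -0.42 and 0.61.

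The difference between the DSS effects was tested directly as an interaction, in which 0 of 52 members passed (0.156% of all genes were called) and 3 had an unadjusted p under 0.05. The estimates were lower in transgenic mice for 44 members and higher for 8, with a median of -0.19. Cxcl9 differed by -1.88 (SE 0.99, limma adjusted p = 0.736), Cxcl10 by -1.05 (SE 0.79, limma adjusted p = 0.899) and Ccl3 by -1.08 (SE 0.94, limma adjusted p = 0.921). The smallest p values were those of Ccl9 (-1.03, SE 0.32, limma adjusted p = 0.301), Ccl28 (1.04, SE 0.33, limma adjusted p = 0.331) and Cx3cl1 (0.46, SE 0.18, limma adjusted p = 0.511). Without mouse 49 the estimates were -2.55, -1.69 and -1.92 for Cxcl9, Cxcl10 and Ccl3, and again 0 members passed. That mouse was singled out for its high values, and that fit kept all wild-type mice. The larger differences without it are therefore no test. These p values do not show that the responses were alike.

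Macrophage markers rose in transgenic mice given DSS as well, 3 of 6 (C1qa 0.98, C1qb 1.01 and Csf1r 1.02). Of 6 neutrophil markers 0 were called, although all 6 differences were positive (0.05 to 1.29, median 0.70). Of the signalling genes 3 of 15 rose (Rac2 1.21, Dock2 0.97 and Grk6 0.61), and of the inducers 3 of 16 (Rel 1.00, Irf1 1.20 and Nfkbia 0.75).

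Neither comparison of transgenic with wild-type mice, without or under DSS, gave a called chemokine. Hardly any genes were called in either comparison, so the lack of calls is no trait of this family. Without DSS 0 of 52 members passed, against 0.0753% of all genes, and 1 had an unadjusted p under 0.05. Cxcl9 differed by 0.33, Cxcl10 by 0.17 and Ccl3 by -0.03 (limma adjusted p of 0.987 or more), and the smallest p values were those of Ccl20 (0.33, limma adjusted p = 0.898), Ccl19 (0.54) and Cx3cl1 (-0.24). Under DSS 0 of 52 passed, against 0.00502% of all genes, and 3 had an unadjusted p under 0.05. Cxcl13 was lower in transgenic DSS mice by 1.17 in its mean, reading 9.14, 9.32, 9.66, 10.30 and 11.04 against the wild-type values given before (-1.17, SE 0.36, limma adjusted p = 0.564), and Ccl9 differed by -0.78 (SE 0.26, limma adjusted p = 0.636). Ccl28 read 9.43, 10.30, 10.72, 10.86 and 10.92 in wild-type DSS mice and 10.95, 11.10, 11.22, 11.25 and 11.28 in transgenic ones. This was the 1 member whose groups did not overlap, against 1.57% of all genes, and at 0.71 (SE 0.25) it did not pass either (limma adjusted p = 0.722). Cxcl9, Cxcl10 and Ccl3 differed by -1.55, -0.89 and -1.10 (limma adjusted p of 1 when rounded), each with overlapping groups.

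In axenic recipients of wild-type flora 26 of 52 members were called against axenic controls, 11 higher and 15 lower. This is a smaller share than that of all genes, of which 67.3% were called, 32.1% higher and 35.2% lower, and it is read with the narrower range of the control arrays. Genes at or below the 40th percentile of mean signal (6.41) had a median change of -0.30 and the others one of 0.35. Of the 52 members 26 were at or below that percentile: 11 of the 15 that fell, and 2 of the 11 that rose. In 14 members the groups did not overlap, 2 above and 12 below, against 44.7% of all genes. Quantile normalization of the 10 arrays left 14 called members, 7 higher and 7 lower, of which 10 were among the 26, and 33.3% of all genes. The other 4 were Cxcl11 and Cxcr6, higher, and Ccl19 and its receptor Ccr7, lower. The split by signal was then the opposite, with 4 of the 7 higher and 1 of the 7 lower members at or below the 40th percentile. Which of the 2 scales is the better one was not tested.

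Cxcl9 had the largest rise among the members. It read 6.35, 6.86, 7.65, 8.40 and 8.52 in controls and 9.21, 10.19, 11.32, 11.40 and 12.11 in recipients of wild-type flora, without overlap. The change was 3.29 (SE 0.56, limma adjusted p = 0.000907) and 2.88 after quantile normalization (limma adjusted p = 0.00673), with calls in all 10 fits that left out 1 mouse. Cxcl10 read 6.97, 7.04, 7.72, 9.04 and 9.04 in controls and 8.43, 8.61, 10.37, 10.45 and 11.68 in recipients, groups that overlapped, and rose by 1.95 (SE 0.64, limma adjusted p = 0.0199), but not after quantile normalization (1.47, limma adjusted p = 0.127). Ccl3 read 6.87, 6.89, 8.64, 9.77 and 12.60 in controls and 8.87 to 11.62 in recipients, a difference of 1.21 (SE 1.01, limma adjusted p = 0.298). The value of 12.60 belonged to 1 control mouse, without which Ccl3 passed at 2.12 (limma adjusted p = 0.0292) and 30 members and 62.5% of all genes were called. This control was singled out for its high values, so larger rises without it are no test.

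Other members that rose were Cxcl13 (1.62, and 1.03 after quantile normalization, limma adjusted p = 0.0436), Ccl5 (1.61, without overlap), Ccl28 (1.23), Ccr1 (1.21), Ccl6 (0.90), Cxcl16 (0.81), Cxcr4 (0.79), the Cxcl13 receptor Cxcr5 (0.78) and Cx3cl1, a membrane-bound ligand of Cx3cr1 (0.44). Of these Cxcl13, Ccr1, Cxcr4 and Cxcr5 were also called after quantile normalization. The call of Cx3cl1 was kept in 3 of 10 fits that left out 1 mouse and that of Ccl28 in 8, with limma adjusted p values up to 0.108 and 0.0550. Among those that fell, Cxcl17, a mucosal chemokine, had the largest change (-0.87, SE 0.14, limma adjusted p = 0.000830), and Cxcr1, Ccl20 and Cx3cr1 were the other called members above the 40th percentile that were lower (-0.67, -0.64 and -0.44); all 4 were also lower after quantile normalization. The remaining 11, with changes from -0.63 to -0.40, were Ccl1, Ccl17, Ccl22, Ccl24, Ccl26, Cxcl15, Xcl1 and the receptors Ccr1l1, Ccr3, Ccr8 and Xcr1.

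**Figure D5:**
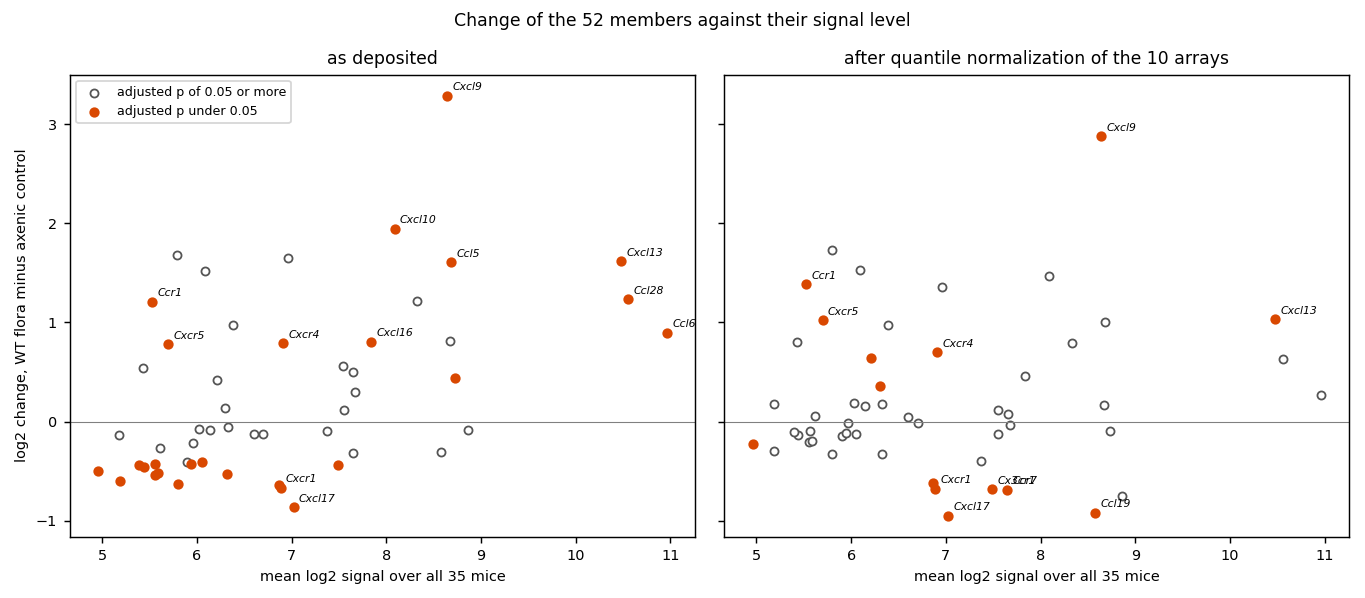
Log2 change of the 52 members between recipients of wild-type flora and axenic controls (vertical) against their mean log2 signal over all 35 mice (horizontal), as deposited (left) and after quantile normalization of the 10 arrays (right), with filled points at an adjusted p under 0.05 and names for called members that changed by at least 0.65. The cluster of small decreases at low signal on the left is called in 11 members and on the right in 1, while Cxcl9 lies at 3.29 and 2.88.

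Cell markers moved in this comparison too, in which 32.1% of all genes were called higher: 5 of 6 macrophage, 3 of 5 B cell, 2 of 6 neutrophil, 4 of 6 epithelial and 5 of 5 pancreas markers rose. Of 5 T cell markers 2 rose and 1 fell, and of 6 smooth muscle markers 0 were called. Of 6 posterior Hox genes 1 rose and 4 fell. With the mean posterior Hox level as a covariate 20 members and 53.1% of all genes were called. Cxcl10 was then not called (1.19, limma adjusted p = 0.215). Of the inducers 12 of 16 rose, among them Irf8 (1.41) and Irf1 (1.70), of the receptor signalling genes 12 of 15, and of the platelet chemokines and atypical receptors 1 rose and 5 fell. Their part in the chemokine calls was not tested. The highest chemokine values among recipients of wild-type flora belonged mostly to 1 mouse, highest in 7 of the 9 members called for DSS, and the lowest mostly to another, lowest in 8.

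Recipients of transgenic flora had 1 called member of 52 against the same controls, with 0.337% of all genes called. The called member was Cxcl13, which read 9.70, 9.71, 9.73, 9.87 and 11.45 in controls and 12.07, 12.31, 12.38, 12.62 and 12.73 in recipients of transgenic flora. All recipients lay above all controls, including the control mouse at 11.45, and the change of 2.33 (SE 0.31, limma adjusted p = 0.00865) was called in all 10 fits that left out 1 mouse. It did not pass without the 7 arrays of lowest spread, of which 3 were controls (1.92, limma adjusted p = 0.0967). Ccl5 was the other member without overlap, a pattern of 2.75% of all genes, at 1.42 (SE 0.35, limma adjusted p = 0.106).

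The other members did not pass; both flora groups were compared with these same controls. Cxcl9 read 7.11, 8.33, 11.08, 11.11 and 11.82, a difference of 2.33 (SE 0.85, limma adjusted p = 0.200), with the mouse at 7.11 inside the control range. Cxcl10 differed by 1.21 (limma adjusted p = 0.396), Ccl3 by 1.32 (limma adjusted p = 0.510), the neutrophil receptor Cxcr2 by 2.13 (SE 0.62, limma adjusted p = 0.145) and Cxcr4 by 1.01 (limma adjusted p = 0.134). That mouse was the lowest of its group in 9 of the 9 members called for DSS in wild-type mice. Without it 17 members, 11 higher and 6 lower, and 26.7% of all genes were called. Among the higher ones were Cxcl9 (3.03, limma adjusted p = 0.0166), Ccl5 (1.62), Cxcr2 (2.61) and Cxcl5 (1.93), while Cxcl10 (1.76, limma adjusted p = 0.0725) and Ccl3 (1.81) were not called. The lower ones were Ccl1, Ccl20, Ccl24, Ccr8, Cxcl17 and Cxcr1. This mouse was singled out for its low chemokine values, so larger rises without it are no test. Of 6 neutrophil markers 3 rose with transgenic flora (S100a8 4.05, Mmp8 3.95 and Ngp 2.99), of 15 signalling genes 1 (Rac2 1.89) and of 16 inducers 0.

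Between recipients of transgenic and of wild-type flora 0 of 52 members passed, 0.0% of all genes were called, and 10 members had an unadjusted p under 0.05, as did 6856 of all genes. The smallest p values were those of Cx3cr1, a receptor of resident macrophages (0.38, SE 0.11, limma adjusted p = 0.0732), Ccl26 (0.44, limma adjusted p = 0.0818, the 1 member without overlap, against 7.43% of all genes) and Cxcl13 (0.71, SE 0.24, limma adjusted p = 0.0863). Cxcl13 read 10.98, 11.52, 11.73, 11.82 and 12.52 with wild-type flora, so that the mouse at 12.52 overlapped the recipients of transgenic flora. Cxcl9 differed by -0.96 (SE 0.88, limma adjusted p = 0.417), Cxcl10 by -0.74 (limma adjusted p = 0.514) and Ccl3 by 0.10 (limma adjusted p = 0.930). Without 1 recipient of transgenic flora, the mouse at 12.38 for Cxcl13, 4 members were called, as were 23.6% of all genes.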

How the data were processed

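RNA from 35 mouse colons was hybridised at 200 ng per mouse. The deposited values are log2 signal that the authors made with RMA in Affymetrix Expression Console 1.1, per the submitters' processing notes; the sources used here name no genome build for the array annotation. Of 28090 probe sets, 21639 had 1 symbol; 1539 with several and 4912 unlisted ones were left out. A gene was represented by its probe set of highest mean signal (990 genes had more than 1). Groups followed titles and design text, and replicates were mice, numbered in titles.

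In limma 3.58.1 (under R 4.3.3) lmFit and eBayes were run, two-sided, on the arrays of each comparison (7 of 2 groups and 1 interaction), over 19908 genes; all were tested on simulated data. Alternatives were all arrays in 1 model, array weights, quantile normalization, the mean of probe sets, a signal filter at the 40th percentile, a posterior Hox covariate and leaving out each mouse; leaving out the 7 arrays of lowest spread was chosen after seeing the data. The rule for members used symbols alone, but this rule and the gene lists were chosen with earlier results of these data known. Named were all called members (up to 12), at least 3 by p in each comparison, and Cxcl9, Cxcl10 and Ccl3; other members are given as descriptions, and those without overlap or called without a mouse were chosen after their values were seen. Outside the family up to 4 genes of a list were named by p. Promoters and gene names came from RefSeq (GRCm38.p6). The number of arrays limits the precision.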

Additional observations from a re-analysis of the deposited data

Results flagged for a closer look

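Within groups of 5 mice, 25 named members were searched in 7 groups (175 sets of values) for a highest or lowest mouse set apart from the rest by Dixon's criterion at the 95% level, which chance alone meets in about 1 in 20 groups. It was met 12 times, in 6 mice. Transgenic DSS mouse 49 was the highest of its group by that criterion in 7 members: Ccl3 (10.96, the next mouse at 6.94), Ccl5 (10.24 and 8.28), Ccl8 (7.83 and 5.94), Ccr1 (6.46 and 5.18), Cxcl10 (10.39 and 7.68), Cxcl2 (9.33 and 5.55) and Cxcl9 (11.10 and 8.29). Its neutrophil and macrophage marker means were the highest of its group too. Untreated transgenic mouse 28 was highest in Cxcl9 (8.28, the next at 6.88) and mouse 31 in Ccr8 (5.59 and 5.17). An axenic control mouse was highest in Cxcl13 (11.45 and 9.87) and another control in Cxcr5 (5.87 and 5.50). A recipient of wild-type flora was lowest in Ccl26 (5.00 and 5.32).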

How the results depend on the processing

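No paired analysis was possible because the mouse numbers in the titles are not shared between groups. Called members under DSS in wild-type mice numbered 9, 30 with array weights (29.4% of all genes) and 0 with the posterior Hox covariate, and 1 to 16 with each mouse left out. These groups did not overlap in Hox level, so the fit with that covariate cannot separate it from DSS. Under DSS in transgenic mice there was 1, and 0 with all 35 arrays in 1 model, 9 with array weights (16.4% of all genes), 2 after quantile normalization and 0 to 4 with each mouse left out; Cxcl14 lost its call in the first (limma adjusted p = 0.0758) and after quantile normalization (0.0654). For genotype under DSS the count was 0, and 1 with array weights (1.70% of all genes). For the donor of flora it was 0, and 2 with all 35 arrays, 6 with array weights (24.5% of all genes) and 0 to 4 with each mouse left out. For wild-type flora it was 26, and 14 after quantile normalization, 13 above the 40th percentile of signal, 8 without the 7 arrays of lowest spread and 25 to 30 with each mouse left out. For transgenic flora it was 1, and 2 with all 35 arrays, 23 with array weights (33.4% of all genes), 0 without the low-spread arrays and 1 to 17 with each mouse left out. Genotype without DSS and the interaction gave 0 members in every setting run. Of the 9 members called for DSS in wild-type mice, some lost their calls in other settings. With all 35 arrays in 1 model these were Ccl3 (limma adjusted p = 0.103), Cxcl2 (0.155) and Ccr1 (0.0518). After quantile normalization it was Cxcl2 (limma adjusted p = 0.0518). Without the 7 arrays of lowest spread they were Ccl8, Ccr1, Cxcl13 and Cxcl16.

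Signs changed for differences that had not been called. With the Hox covariate Cxcl9 was at -0.10 for genotype without DSS, Ccl28 at -0.030 for genotype under DSS and Ccl3 at -0.46 for wild-type flora. The wild-type and transgenic mice given DSS did not overlap in Hox level, so the value of Ccl28 cannot separate genotype from that level. Ccl3 for genotype without DSS was at 0.060 without the low-spread arrays and between -0.10 and 0.066 with each mouse left out, and for the donor of flora between -0.39 and 0.60. The causes were not tested. Array weights reduce the influence of arrays that deviate. The array gives no detection call in the deposited values, and 26 of 52 members had a mean signal at or below the 40th percentile of all genes.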
